A study of Mus musculus with 6 samples.

Results

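The heat shock chaperone genes described here are Hspa1a, Hspa1b, Hspa8, Hsph1, Dnajb1, Bag3, Hsp90aa1, Hspb1, Hspb8 and Cryab. They form a named list of cytosolic chaperone genes driven by the transcription factor HSF1. The rule that names them uses no measured value, but earlier results of these data were known when it was written. All 10 were found among the 46983 genes of the count tables, and all 10 were among the 16851 genes with enough reads to be tested. They were followed in cerebellum RNA of 6 C57BL/6J mice at postnatal day 60. The 3 mice labelled WT carried Tie2-Cre and 1 floxed Slc7a5 allele (Tie2-Cre Slc7a5 fl/+), and the 3 labelled Slc7a5-KO carried Tie2-Cre with both alleles floxed (Tie2-Cre Slc7a5 fl/fl). Both groups thus shared the recombinase, and the control animals were heterozygous for the floxed allele rather than free of it. Tie2-Cre acts in endothelial and blood lineages, whereas the RNA came from whole cerebellum, in which neurons and glia are abundant.

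Chaperones keep other proteins folded. HSP70 proteins bind unfolded stretches in cycles of ATP use, J-domain proteins such as DNAJB1 bring them clients, and exchange factors such as HSPH1 and BAG3 release the nucleotide that closes each cycle. HSP90 matures kinases and receptors, and small heat shock proteins hold damaged proteins until HSP70 can act. When misfolded proteins build up, HSF1 is freed from chaperones, forms trimers and binds heat shock elements, which are repeats of GAA in alternating orientation, so the inducible genes of this group are widely used as a readout of protein-folding stress. Hspa8 is the constitutive HSP70, Hspa1a and Hspa1b are the stress-inducible copies, and Cryab is abundant in oligodendrocytes and astrocytes.

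Sequence shared with other genes bears on how each member could be counted. Reads that map to several places are not counted in these tables, so the share of 50-base words of the longest GENCODE M21 transcript that also occur in transcripts of another gene was computed for each member. The share was 60.3% for Hspa1a and 62.3% for Hspa1b, which mostly match each other. It was 58.5% for Hsp90aa1 (chiefly Gm12346), 51.6% for Hspb1 (Hsp25-ps1) and 51.4% for Hspa8 (chiefly Gm15459). It was 0.407% for Dnajb1 and 0 for Hsph1, Bag3, Hspb8 and Cryab. Levels of the first 5 genes are therefore uncertain and may be too low, while the levels of the other 5 rest on sequence that is almost entirely their own.

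The likeness of Hspa1a and Hspa1b extends beyond their transcripts. RefSeq promoter windows on GRCm38.p6 were at hand for 7 members, and these did not include Hspa8, Hsp90aa1 and Cryab. Over the 250 bases before the start site, the windows of Hspa1a and Hspa1b differed at 3 bases. The stretch from -150 to -61 is shown for both because it is the same in the pair, and for Hspb1 because it holds matches at a similar distance. All are written 5′ to 3′ on the strand of the gene, and capitals mark matches to GAANNTTC, a pair of facing heat shock element units. Hspa1a lies on the minus strand (chr17:34972217-34972306), Hspa1b on the minus strand (chr17:34959299-34959388) and Hspb1 on the plus strand (chr5:135887769-135887858).
Hspa1a: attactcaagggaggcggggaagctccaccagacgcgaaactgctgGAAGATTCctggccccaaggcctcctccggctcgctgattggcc
Hspa1b: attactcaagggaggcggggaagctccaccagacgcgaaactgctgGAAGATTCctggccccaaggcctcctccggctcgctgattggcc
Hspb1: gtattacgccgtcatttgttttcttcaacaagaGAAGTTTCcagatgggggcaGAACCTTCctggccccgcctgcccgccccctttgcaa

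The letters GAANNTTC or TTCNNGAA, each of which reads the same on both strands and which may overlap each other, were searched in the 250 bases before each start site. Matches were found for 4 of the 7 members, namely Hspa1a and Hspa1b (first base at -104), Hspb1 (-117 and -97) and Hsph1 (TTCNNGAA at -33 and -54 from its 2 listed start sites). These matches lay in 5 of the 9 windows listed for the members, which share sequence within Hspa1a and Hspa1b and within the overlapping Hsph1 windows. Of all 32851 promoter windows of that length, 12.8% held either motif. A run of 3 alternating units, GAANNTTCNNGAA or TTCNNGAANNTTC, was in 0 member windows and in 0.466% of all windows. A match is a run of letters and was not tied to binding here.

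Depth was 13438182 to 34160856 gene reads per library, and Slc7a5-KO replicate 3 was the shallowest. Granule neuron markers (Cbln3 the most abundant) summed to 3845 to 5713 CPM in the WT libraries and 3318 to 5374 CPM in the Slc7a5-KO libraries, where CPM are reads scaled to a common library size with TMM factors. Purkinje cell markers (Itpr1 the most abundant) summed to 4926 to 5998 CPM in the former and 3420 to 5150 CPM in the latter. Fitted values were below 0 for 5 of 6 granule neuron markers (median log2 fold change -0.22) and for 6 of 6 Purkinje cell markers (median -0.42), and none of them passed the test. Slc7a5 itself (edgeR log2 fold change 0.91 ± 0.42, adjusted p = 0.84) showed no loss under the label Slc7a5-KO: replicates 1 to 3 held 164, 59.4 and 118 CPM, and WT held 72.0, 66.3 and 43.2 CPM. The count covers the whole gene, so reads outside a deleted stretch would still be in it, and group names below are those of the labels. Without Slc7a5-KO replicate 2 its value was 1.22 (edgeR adjusted p = 0.010). Slc7a5-KO replicate 2 held almost no choroid plexus RNA, with 33.4 CPM over 6 markers against 2343 to 5670 CPM elsewhere. Summed microglia markers were 176 to 195 CPM in WT and 222 to 245 CPM in Slc7a5-KO, and none of the 6 passed the test. No marker of the 11 cell type lists was at 0 in any library.

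None of the 10 chaperone genes passed the test between Slc7a5-KO and WT. By edgeR (quasi-likelihood, Benjamini-Hochberg over all genes) their adjusted p ran from 0.90 to 1.00, and of all genes tested 0.0475% were called. At an unadjusted p under 0.05 edgeR gave 0 members against 6.22% of all genes. DESeq2 and limma-voom also called 0 members (DESeq2 gave Hspa1b no adjusted p), against 0.273% and 0.0593% of all genes. Of the 10 fitted values, 7 were above 0 and 3 below, with a median log2 fold change of 0.07 against 0.0022 over all genes tested. The members' summed level was 525 ± 54.7 CPM in WT and 560 ± 42.7 CPM in Slc7a5-KO (SD, n = 3 each), and the groups overlapped.

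**Figure D1:**
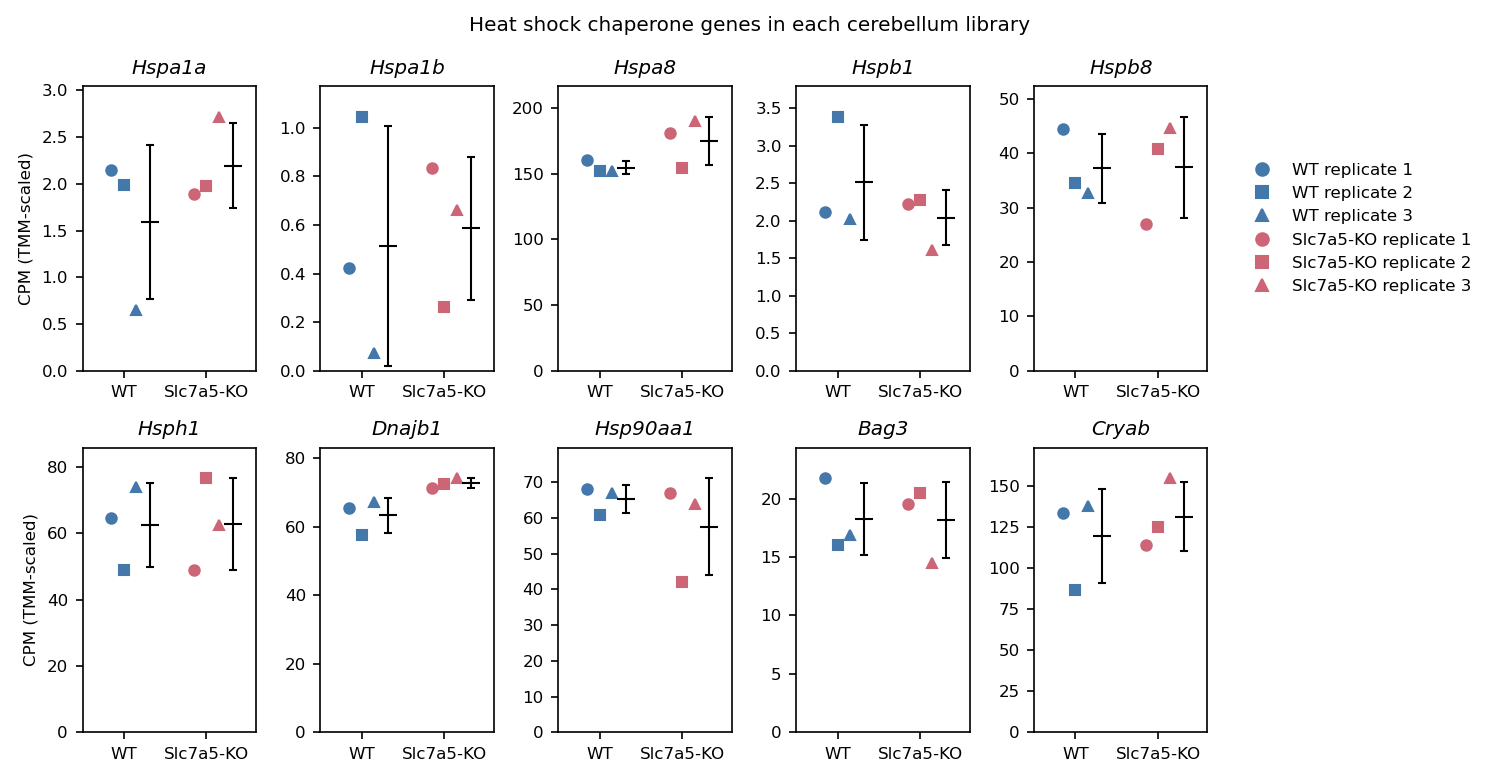
CPM (TMM-scaled, linear axis from 0) of each chaperone gene in the 6 libraries, with 1 symbol per animal and a black bar for the group mean with its SD (n = 3). The groups overlap in every panel except Dnajb1, and the lowest point stands well apart in WT replicate 3 for Hspa1a and in Slc7a5-KO replicate 2 for Hsp90aa1, whereas 2 libraries share the low level of Hsph1.

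Hspa8 (ENSMUSG00000015656.16, GRCm38 chromosome 9, 40800984 to 40810087, plus strand) encodes the constitutive HSP70 that also strips clathrin from vesicles. Its level was 160, 152 and 152 CPM in the WT animals (replicates 1 to 3, as in all such lists) and 181, 154 and 190 CPM in the Slc7a5-KO animals. Slc7a5-KO replicates 1 and 3 lay above all WT animals, and replicate 2 lay among them. Its fitted log2 fold change of 0.18 ± 0.13 did not pass (edgeR adjusted p = 0.90), with a 95% interval of -0.08 to 0.44, so a rise of more than 1.36-fold lay outside it. Its introns host the snoRNA genes Snord14c, Snord14d and Snord14e on the same strand, and reads that match several genes were left out.

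The inducible copies were near the lower limit of counting. Hspa1a (ENSMUSG00000091971.3, chromosome 17, 34969190 to 34972156, minus strand) received 76, 55 and 18 reads in WT and 61, 53 and 37 in Slc7a5-KO, or 2.15, 1.99 and 0.652 CPM against 1.89, 1.98 and 2.72 CPM. Hspa1b (ENSMUSG00000090877.3, chromosome 17, 34956436 to 34959238, minus strand) received 15, 29 and 2 reads in WT and 27, 7 and 9 in Slc7a5-KO. WT replicate 3 was the lowest library for both copies, and otherwise the animals of both groups were interleaved. The log2 fold change of Hspa1a was 0.45 ± 0.64 (edgeR adjusted p = 0.97), and without WT replicate 3 it was 0.08. That of Hspa1b was 0.19 ± 1.29 (edgeR adjusted p = 1.00) over an interval of -2.53 to 2.90, so a difference between groups was not detectable with these counts, and without WT replicate 3 it was -0.33.

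The sum of both copies is free of reads moved between the pair, though reads that match both are still missing from it. The WT animals had summed values of 2.57, 3.03 and 0.724 CPM, and the Slc7a5-KO animals of 2.72, 2.24 and 3.38 CPM. The groups overlapped, and a 2-sided exact permutation test of the sum gave p = 0.5, where 3 against 3 animals cannot go below 0.1. The difference of the sum was 0.674 CPM, and 0.326 CPM (exact permutation p = 0.8) with both strands counted. Hspa1a also overlaps Gm20481 on the other strand, and with both strands counted its log2 fold change was 0.19.

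Among the partners of HSP70, Dnajb1 was the only member whose groups did not overlap. Dnajb1 (ENSMUSG00000005483.9, chromosome 8, 83608193 to 83612653, plus strand) is the J-domain protein that delivers clients to HSP70 and a classical HSF1 target. The WT animals had 65.5, 57.6 and 67.2 CPM, and the Slc7a5-KO animals 71.4, 72.7 and 74.3 CPM. The gap between the highest WT and the lowest Slc7a5-KO animal was smaller than the WT range and larger than the Slc7a5-KO range. The Slc7a5-KO animals lay close together. Its fitted log2 value was 0.20 ± 0.14 (edgeR adjusted p = 0.90), with an interval of -0.09 to 0.48, and it stayed between 0.14 and 0.24 when any 1 library was left out. Of all genes tested 11.5% had groups that did not overlap, and 5.93% did so with the higher values in Slc7a5-KO, so 1 of 10 members is near the background.

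Hsph1 (ENSMUSG00000029657.15, chromosome 5, 149614287 to 149636376, minus strand) encodes HSP110, the main exchange factor of HSP70. Levels of 64.6, 48.9 and 73.9 CPM were measured in WT, and of 48.9, 76.7 and 62.6 CPM in Slc7a5-KO. The groups covered nearly the same range, and the means were 62.5 ± 12.7 and 62.7 ± 13.9 CPM (SD, n = 3). Between groups the fitted log2 difference was 0.0049 ± 0.18 (edgeR adjusted p = 1.00, interval -0.37 to 0.38).

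Bag3 (ENSMUSG00000030847.8, chromosome 7, 128523616 to 128546981, plus strand) links HSP70 and small heat shock proteins to selective autophagy. WT held 21.8, 16.0 and 16.9 CPM of it, and Slc7a5-KO 19.6, 20.5 and 14.5 CPM. The highest value was in a WT animal and the lowest in Slc7a5-KO replicate 3, and the group means were 18.2 ± 3.08 and 18.2 ± 3.23 CPM. Its log2 fold change was -0.00081 ± 0.22 (edgeR adjusted p = 1.00), and the 95% interval ran from -0.46 to 0.46. Bag3 overlaps 2610306O10Rik on the same strand, and reads that match both genes were left out of its count.

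Hsp90aa1 (ENSMUSG00000021270.13, chromosome 12, 110690605 to 110702728, minus strand), the inducible cytosolic HSP90, was low in 1 library. Its level was 68.1, 60.7 and 66.9 CPM over the WT animals and 66.9, 42.0 and 63.9 CPM over the Slc7a5-KO animals. Only Slc7a5-KO replicate 2 lay below the WT range. A log2 fold change of -0.18 ± 0.17 was fitted (edgeR adjusted p = 0.95), and without that library it was 6.7e-05. Of the 6 libraries, the same one had the lowest sums of choroid plexus (33.4 CPM), granule neuron (3318 CPM), Purkinje cell (3420 CPM) and astrocyte markers (1381 CPM) and the highest of oligodendrocyte markers (7340 CPM). Their part in the result was not tested. The constitutive HSP90 gene Hsp90ab1 (picked with its values in view) had 402 to 530 CPM in WT and 523 to 551 CPM in Slc7a5-KO, of which replicate 2 had 536 CPM.

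The 3 small heat shock protein genes were at very different levels, and none passed the test. Cryab (ENSMUSG00000032060.9, chromosome 9, 50751325 to 50756636, plus strand), which encodes alpha-B crystallin, had 134, 86.5 and 138 CPM in the WT animals, while the Slc7a5-KO animals had 114, 125 and 155 CPM. WT replicate 2 was the lowest animal and Slc7a5-KO replicate 3 the highest, with the other 4 between them. Its log2 fold change of 0.14 ± 0.17 did not pass (edgeR adjusted p = 0.97) and was -0.05 without WT replicate 2. Cryab overlaps Hspb2, its neighbour on the other strand.

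Hspb8 (ENSMUSG00000041548.4, chromosome 5, 116408491 to 116422864, minus strand), the partner of BAG3 in chaperone-assisted autophagy, was measured at 44.4, 34.5 and 32.6 CPM in WT, against 27.0, 40.7 and 44.6 CPM in Slc7a5-KO. The WT values lay within the Slc7a5-KO range, and a log2 difference of 0.0052 ± 0.20 was fitted (edgeR adjusted p = 1.00, interval -0.40 to 0.42). Hspb1 (ENSMUSG00000004951.10, chromosome 5, 135887919 to 135889563, plus strand), which encodes HSP25 and is typical of vessels and reactive glia, received only 22 to 94 reads per library. Those reads gave the WT animals 2.12, 3.39 and 2.03 CPM, against 2.23, 2.28 and 1.62 CPM in Slc7a5-KO. WT replicate 2 was the highest, and the other 5 animals lay between 1.62 and 2.28 CPM. The fit gave -0.29 ± 0.53 (edgeR adjusted p = 0.98), and without WT replicate 2 it was -0.01.

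**Figure D2:**
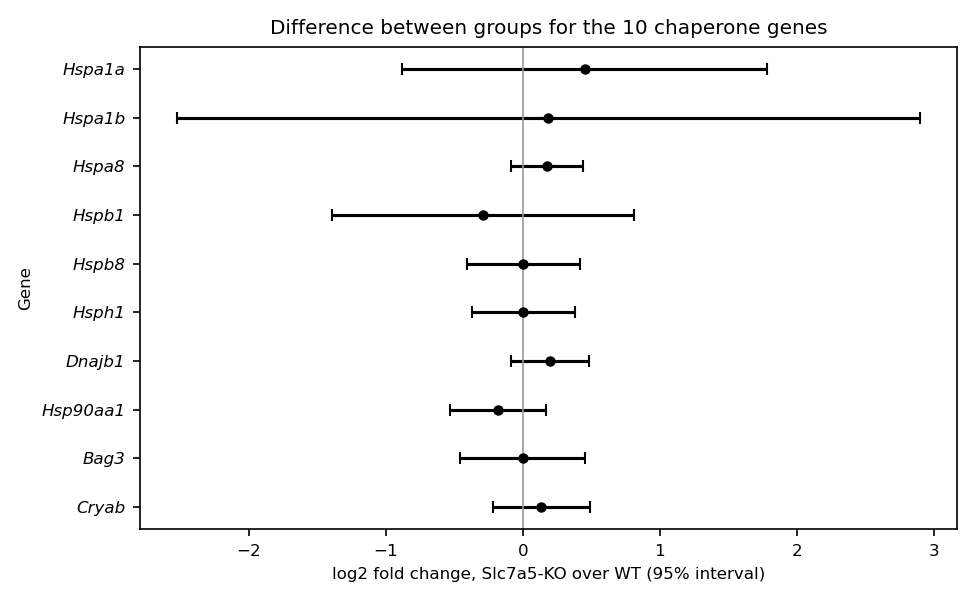
Fitted log2 fold change of each chaperone gene (Slc7a5-KO over WT, edgeR, 3 animals per group) with its 95% interval, unadjusted. Every interval spans 0, and those of Hspa1a, Hspa1b and Hspb1 are the widest.

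The intervals show what the data could and could not see. For the 7 members with a mean of at least 10 CPM, no interval reached beyond a 1.45-fold change in either direction. The other 3, Hspa1a, Hspa1b and Hspb1, had wider intervals, which reached 2.63-fold lower for Hspb1, 3.45-fold higher for Hspa1a and 7.47-fold higher for Hspa1b. In the authors' deposited table the unshrunken log2 fold changes of the same members ran from -0.29 (Hspb1) to 0.44 (Hspa1a). Their adjusted p in the authors' deposited table ran from 0.56 (Dnajb1) to 1.00, with none listed for Hspa1b.

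Per length of annotated exons, Cryab was the highest member at 84.7 CPM per kb (58.5 to 105 over the 6 libraries), followed by Hspa8 at 38.3 CPM per kb (35.3 to 44.1). Dnajb1, Hspb8 and Hsp90aa1 followed at 21.3, 19.1 and 15.6 CPM per kb, and their ranges over the libraries overlapped from each to the next. Hsph1 (8.61 CPM per kb) and Bag3 (7.10 CPM per kb) overlapped each other and lay below those 3. Hspb1 stood at 2.21, Hspa1a at 0.639 and Hspa1b at 0.196 CPM per kb, and the last 2 overlapped. The 5 members with shared sequence may be placed too low in this order, which includes all of the lowest 3. The length used joins the exons of all transcripts of a gene. For Hsph1 it was 7266 bases, against 4764 in its longest transcript, whereas Bag3 had 2562 by either measure. The place of Hsph1 beside Bag3 and the genes above it therefore depends on the length used. Cryab and Hspa8 together made up the larger part of the members' summed CPM, with mean shares of 22.9% and 30.4%, against 0.35% for Hspa1a and 0.105% for Hspa1b.

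No library was the highest or the lowest for all members. Slc7a5-KO replicate 3 was the highest library for 5 members (Hspa1a, Hspa8, Hspb8, Dnajb1 and Cryab) and the lowest for 2 (Hspb1 and Bag3). WT replicate 2 was the highest for 2 (Hspa1b and Hspb1) and the lowest for 3 (Hspa8, Dnajb1 and Cryab). The mean of the members' log2 CPM, each centred on its own mean over the 6 animals, ran from -0.31 in WT replicate 3 to 0.14 in Slc7a5-KO replicate 3. The low value of WT replicate 3 came from Hspa1a (-1.33) and Hspa1b (-1.81), with 18 and 2 reads, while the other 8 members lay between -0.17 and 0.26 there. Single members lay 0.13 (Hspa8) to 0.87 (Hspa1b) from that mean as a root mean square over the libraries. Among 14643 other genes with a mean of at least 1 CPM, the nearest by the same measure over 6 libraries were Gclc (0.036), Id3 (0.043), Elmod3 (0.043), Kbtbd4 (0.050) and Morf4l2 (0.053). They were picked for this likeness, which includes the low value of WT replicate 3.

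The spread between animals was set beside that of other genes at similar levels. The highest library was 1.25-fold above the lowest for Hspa8, 1.29-fold for Dnajb1, 1.50-fold for Bag3, 1.57-fold for Hsph1, 1.62-fold for Hsp90aa1, 1.65-fold for Hspb8 and 1.79-fold for Cryab. The median of these 7 was 1.57-fold, against 1.49-fold for the 9068 genes with a mean of 10 to 200 CPM. Hspb1, Hspa1a and Hspa1b spanned 2.05-, 3.85- and 7.68-fold, where 5276 genes with a mean under 5 CPM had a median of 4.96-fold. These ranges are on the log2 CPM scale with a prior count of 2, which narrows them for low genes.

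Cryab and Hsph1 were both low in WT replicate 2 and Slc7a5-KO replicate 1, and so were the oligodendrocyte markers. These 2 members and this marker list were picked with their values in view. The 8 markers summed to 6162, 4128 and 5591 CPM in WT replicates 1 to 3 and to 4278, 7340 and 5478 CPM in Slc7a5-KO replicates 1 to 3, with Mbp the most abundant and none at 0. Hsph1 was highest where the markers were highest, in Slc7a5-KO replicate 2, whereas Cryab was highest in Slc7a5-KO replicate 3, where the markers were lower than in 3 of the other 5 libraries. None of the 8 markers passed the test between groups. Other cell types moved the opposite way: astrocyte markers were highest in WT replicate 2 (2071 CPM) and Slc7a5-KO replicate 1 (1956 CPM), against 1381 to 1776 CPM elsewhere. Granule neuron markers were highest in the same 2 libraries, at 5713 and 5374 CPM. In bulk tissue, fewer cells of a type and less RNA per cell cannot be told apart, and the part of cell type content in the Cryab and Hsph1 values was not tested. Markers of endothelial cells, in which Tie2-Cre is active, summed to 200 to 229 CPM in WT and 201 to 251 CPM in Slc7a5-KO, over 8 markers of which none was at 0.

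**Figure D3:**
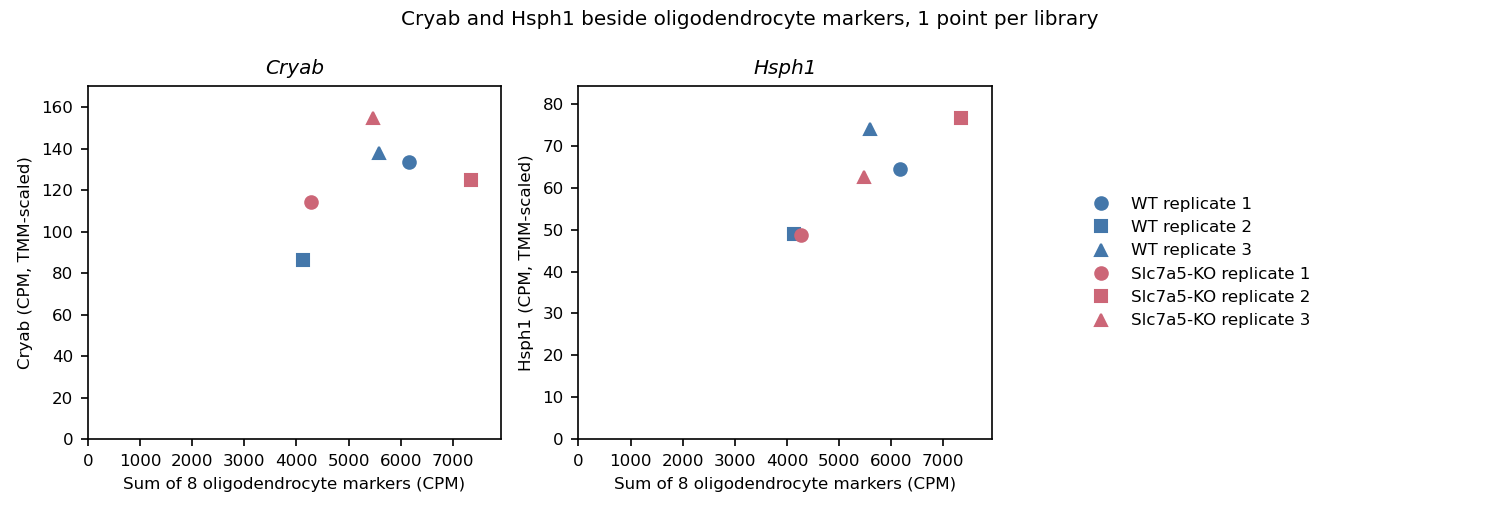
Cryab (left) and Hsph1 (right) in CPM against the summed CPM of 8 oligodendrocyte markers, 1 point per library, with all axes linear from 0. WT replicate 2 and Slc7a5-KO replicate 1 lie at the lower left of both panels, at 4128 and 4278 CPM of markers.

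The rest of the heat shock pathway was described from 9 lists of 60 genes, of which 56 could be tested and none passed by edgeR. In all 23 were above 0 and 33 below, with a median log2 fold change of -0.05. By edgeR 1 gene had an unadjusted p under 0.05, against 6.22% of all genes tested. The groups did not overlap in 9 of the 56, 4 higher and 5 lower in Slc7a5-KO, where 11.5% of all genes tested did not overlap. Among the heat shock factors, Hsf1, the master regulator, had 25.8, 25.3 and 26.0 CPM in WT with 31.6, 30.1 and 28.2 CPM in Slc7a5-KO. The groups did not overlap, but the gene did not pass (log2 fold change 0.22 ± 0.17, edgeR adjusted p = 0.93). Hsf4, the factor best known from the lens, had 0.52 ± 0.33 (edgeR adjusted p = 0.88).

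The gene with the smallest unadjusted p was Chordc1, which encodes an HSP90 co-chaperone induced by heat. Its WT values were 27.4, 41.9 and 43.5 CPM, and its Slc7a5-KO values 25.8, 22.0 and 28.3 CPM. WT replicate 1 lay among the Slc7a5-KO animals. Its log2 fold change was -0.57 ± 0.20 (edgeR adjusted p = 0.62, unadjusted p = 0.0095). Ahsa2, related to the HSP90 activator AHSA1, had -0.65 ± 0.31 (edgeR adjusted p = 0.81). Over the 10 HSP90 partners 3 were above 0 and 7 below, with a median log2 fold change of -0.09.

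HSP70 relatives and partners were likewise not called. Hspa4l, an HSP110-type gene, stood at 235 to 250 CPM in WT and 195 to 219 CPM in Slc7a5-KO without overlap (log2 fold change -0.21 ± 0.12, edgeR adjusted p = 0.85). Hspa2 had 0.36 ± 0.22 (edgeR adjusted p = 0.86). Of the 7 listed HSP70 and HSP110 genes, Hspa1l was too low to test and Hspa14 had no matching symbol among the counted genes. The 9 other J-domain genes had a median of -0.02, and those with the smallest p were Dnaja1 (-0.27 ± 0.17) and Dnajb5 (0.15 ± 0.14). The 7 HSP70 partners had a median of -0.06, with Bag1, a nucleotide exchange factor, at -0.16 ± 0.15 and Hspbp1 at 0.16 ± 0.18.

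The other genes listed under the name of small heat shock proteins were at low levels. Of 6, Hspb7 and Cryaa were too low to test, and the 4 tested, with means of 1.31 (Hspb3) to 10.5 CPM (Hspb6), had a median log2 fold change of -0.71. Hspb3 had 1.78, 3.00 and 1.41 CPM in WT but 1.39, 0.224 and 0.0735 CPM in Slc7a5-KO, the last from 1 read (log2 fold change -1.80 ± 0.93, edgeR adjusted p = 0.83). Slc7a5-KO replicate 1 was close to WT and the other 2 were far lower, and the value was -3.66 without replicate 1 and -1.33 without replicate 3. Hspb11, for which a chaperone role was not checked here, had -0.67 ± 0.42 (edgeR adjusted p = 0.88).

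**Figure D4:**
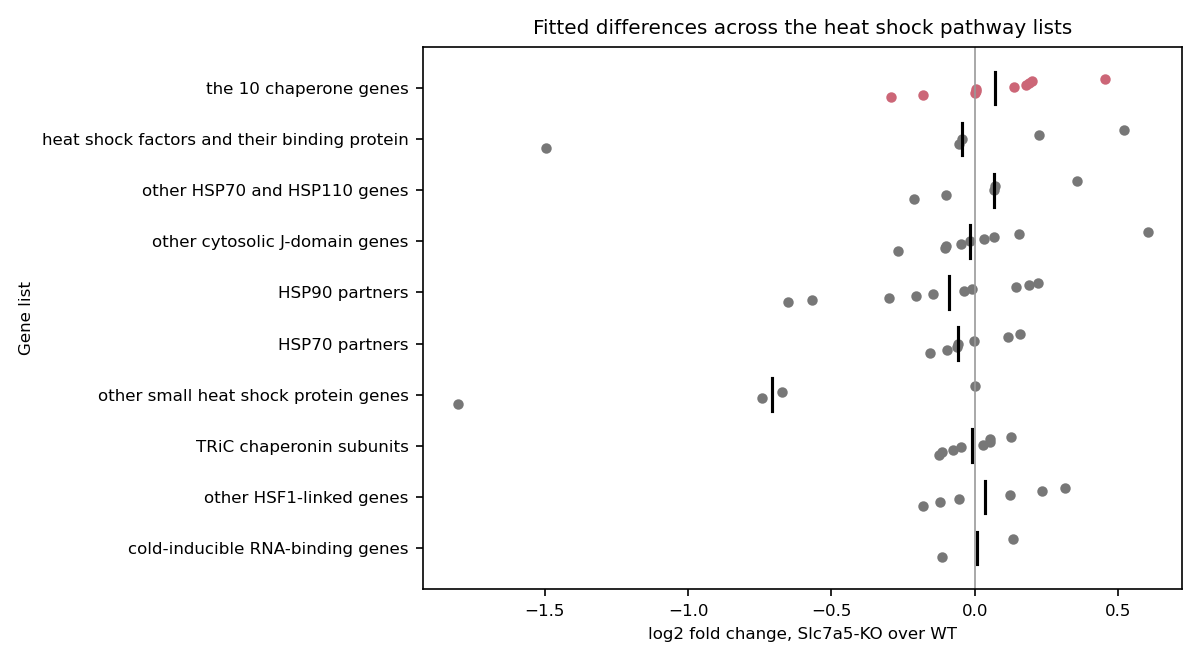
Fitted log2 fold changes (Slc7a5-KO over WT) of the 10 chaperone genes (red) and of the tested genes of 9 pathway lists (grey), 1 point per gene, with a black bar at each list's median. The medians lie near 0 except for the small heat shock protein list, which holds 4 genes of 1.31 to 10.5 CPM, and none of these genes passed the test.

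The TRiC chaperonin, a ring of 8 subunits that folds actin and tubulin, had a median log2 fold change of -0.0088. Cct5 was at -0.13 ± 0.12 and Cct8 at -0.12 ± 0.13. The 6 other HSF1-linked genes had a median of 0.03, with Ier5 at 0.31 ± 0.33. Cirbp and Rbm3, which rise when tissue cools and fall when it warms, had 0.13 ± 0.15 and -0.12 ± 0.20. The immediate early genes are a gauge of neuronal activity and handling, and all 8 were above 0 with a median of 0.38. None passed by edgeR (Egr1 1.04 ± 0.20, adjusted p = 0.068, and Fosb 1.24 ± 0.56, adjusted p = 0.78). Egr1 was called by DESeq2 (adjusted p = 0.0016), with no filter (edgeR adjusted p = 1.2e-05) and without Slc7a5-KO replicate 2 (edgeR adjusted p = 0.0037). It was not called by limma-voom (adjusted p = 0.11), with the replicate block (edgeR adjusted p = 0.14) or in any other setting. Dropping a different library gave an edgeR adjusted p from 0.17 (without Slc7a5-KO replicate 1) to 0.52 (without WT replicate 3).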

How the data were processed

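Total RNA of cerebellum from 6 mice, 1 library each, was made into libraries with a SENSE mRNA-Seq V2 kit, per the labels' protocols. The deposited files hold raw read counts per gene, made with STAR 2.5.4 on GRCm38 (mm10), per the submitters' processing notes. No source used here names the annotation release. Multimapping reads are listed as 0. The reverse-strand column, with 94.8% to 95.8% of stranded gene reads, was used, and reads of no gene or of several (19.5% to 22.2%) were left out. The authors' deposited table comes from DESeq2 1.10.1 in R 3.2.4, per the submitters' processing notes, and gives a mean normalised signal, log2 fold changes, a Wald score and p-values.

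Symbols matched 46488 of 46983 identifiers, and coordinates come from GENCODE M21. Genes were filtered by filterByExpr (minimum count 10, minimum total 15), scaled by TMM and tested across all genes with edgeR 4.0.16 in R 4.3.3 (robust quasi-likelihood, false discovery rate 0.05). The fit was run on simulated data with the same spread for all genes. Changes were set only in genes at higher levels than Hspa1a, Hspa1b and Hspb1, so changes in genes as low as these were not checked. DESeq2 1.42.0 and limma 3.58.1 were alternatives, as were other scalings and filters, counts of both strands, a block on replicate number, and fits that each drop 1 library. A ± gives the SD over 3 animals for CPM, and for log2 fold changes the standard error of the fit. The labels do not say that same-numbered animals are related. Depth was 13438182 to 34160856 gene reads per library. The 7 members of at least 10 CPM had a biological coefficient of variation of 12.4% to 20.3%. The p-values set the group difference against the spread between animals, which edgeR moderates over all genes.

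The members and lists were chosen with earlier results of these data known. Named were all members, Slc7a5, from each pathway list the genes past the threshold or else the 2 with the smallest p, the most abundant gene of the cell type marker lists used, and the 5 genes nearest the members' mean pattern. Of the genes this rule names, 1 is not reported here. Genes outside this rule (Hsp90ab1) are marked in the text.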

Additional observations from a re-analysis of the deposited data

How the results depend on the processing

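No member was called under any of the 14 alternatives, by edgeR, DESeq2 or limma-voom, and the lowest adjusted p of a member was 0.70. By edgeR 0 members had an unadjusted p under 0.05 in the fit reported. Hspa1b was not tested with a mean CPM filter of at least 1. The members' median log2 fold change was -0.03 to 0.16 over the fits that dropped 1 library and 0.0056 to 0.090 over the others. The fitted values of 6 members changed sign under some alternative without being called. Those of Hspa1b (0.19 in the fit reported), Hsp90aa1 (-0.18) and Cryab (0.14) did so only when 1 library was left out. Hspb8 had -0.076 by limma-voom and -0.0096 with the replicate block. Hsph1 had -0.010 by limma-voom. Bag3 had 0.021 with library totals alone, 0.00074 with both strands together and 0.032 by limma-voom. When 1 library was left out, log2 values ran from -0.33 to 1.21 for Hspa1b, -0.13 to 0.20 for Hspb8, -0.17 to 0.16 for Hsph1, -0.31 to 6.7e-05 for Hsp90aa1, -0.10 to 0.15 for Bag3, -0.047 to 0.25 for Cryab and -0.031 to 0.31 for Hspbp1.

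Over all genes, edgeR called 8 higher and 0 lower (1048 at an unadjusted p under 0.05), against 55 and 16 with no filter and 40 and 6 by DESeq2. Leaving out 1 library gave 3 (without WT replicate 3) to 20 (without Slc7a5-KO replicate 1) higher and 0 to 3 lower, 3 without Slc7a5-KO replicate 2. With the replicate block 6 genes were called. Deviations of same-numbered libraries from their group means had correlations of -0.04, -0.06 and -0.03 across genes, against -0.03 to 0.07 for the others. Deviations within a group sum to 0, which constrains these values. They cannot decide whether the numbers pair the animals. Hspa1a, Hspa1b and Hspb1 received 2 to 94 reads per library, and the parts of depth and of shared sequence in those low counts were not tested.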
